A study of Homo sapiens with 6 samples.

Results

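The Wnt target and feedback genes described here are AXIN1, AXIN2, LEF1, TCF7, TCF7L2, NKD1, APCDD1, CTNNB1, WNT5A and SFRP1, chosen by name as 10 genes of the Wnt pathway that are transcribed in response to it, restrain it or carry its signal. Every probe that the array annotation assigned to 1 of these symbols was taken. Of the 10 genes, 9 had a probe, and AXIN1 had 2, which gave 10 probes among 47289 with values on the array. No probe carried the symbol TCF7 in this annotation, so TCF7 has no value here. For 4 probes, those of CTNNB1, SFRP1 and LEF1 and 1 of the AXIN1 probes, the signal lay above background on all 6 arrays, and these were among the 12082 probes tested. The other 6 probes, of AXIN1, AXIN2, NKD1, APCDD1, TCF7L2 and WNT5A, were above background on fewer than 3 arrays and were not tested.

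In the canonical Wnt pathway a Wnt ligand binds a Frizzled receptor and an LRP co-receptor and halts a cytoplasmic complex, built on the scaffold axin, that otherwise marks beta-catenin for destruction. Beta-catenin then enters the nucleus and acts with the DNA-binding proteins of the TCF/LEF family. Several of the genes it switches on, AXIN2 and NKD1 among them, encode inhibitors of the same pathway, so that their transcripts are widely read as a measure of its activity. In melanocytes and melanoma, Wnt signalling is known for its part in lineage and in cell motility.

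A2058, a human melanoma cell line, was treated for 48 h with an siRNA against CT16, a cancer-testis antigen encoded by PAGE5, or with a control siRNA. Total RNA of 3 replicates with CT16 siRNA and 3 with control siRNA was hybridised to Illumina BeadChips, 1 array for each replicate. Neither the labels nor the study's methods state whether each replicate was a separate culture, and the standard errors and p-values treat them as independent. The comparison asks which transcripts differ when CT16 is silenced. All arrays come from 1 cell line and, by the study's methods, from 1 CT16 siRNA. On these arrays an effect particular to that siRNA and an effect of CT16 loss therefore cannot be told apart.

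The probe of PAGE5 itself was not above background on any array (detection p 0.178 to 0.815), so the group labels could not be checked through the silenced gene. Apart from these arrays, the study reports that its CT16 siRNAs lowered CT16 mRNA in A2058 cells. The median signal was 164.4 to 173.9 on the CT16 siRNA arrays and 164.5 to 190.6 on the control arrays. On the CT16 siRNA arrays 12895 to 13110 probes lay above background, against 11311 to 12561 on the control arrays. A principal component analysis of the tested probes put 71.8% of their variance on 1 axis, with CT16 siRNA replicate 1 at its far end. Of the melanocyte lineage markers 6 of 7 passed the filter, and of the leukocyte markers 0 of 4, keratinocyte markers 1 of 5 and fibroblast markers 2 of 5.

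For none of the 4 tested probes did the difference between CT16 siRNA and control siRNA cells pass the test. The log2 differences lay between -0.10 and 0.07, where a positive value means higher signal after CT16 siRNA, and the 2 groups overlapped for all 10 probes. By limma with Benjamini-Hochberg adjustment, 0 of the 4 passed an adjusted p of 0.05, which 0 of the 12082 tested probes passed (0% of them, smallest adjusted p 0.202). At an unadjusted limma p under 0.05 stood 0 of the 4, against 9.57% of all tested probes. By the rank product, the test of the study's methods, 0 of the 10 probes reached a false discovery rate of 0.05 in either direction (smallest estimate 0.916), where 0.203% of all probes did so as higher and 0.218% as lower. Groups without overlap were found for 7.39% of the tested probes with CT16 siRNA higher and for 8.95% with CT16 siRNA lower. The median size of the difference, without regard to sign, was 0.07 over the 4 probes and 0.13 over all tested probes. With 4 probes, such counts and medians describe these genes and do not set them apart from the others.

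**Figure D1:**
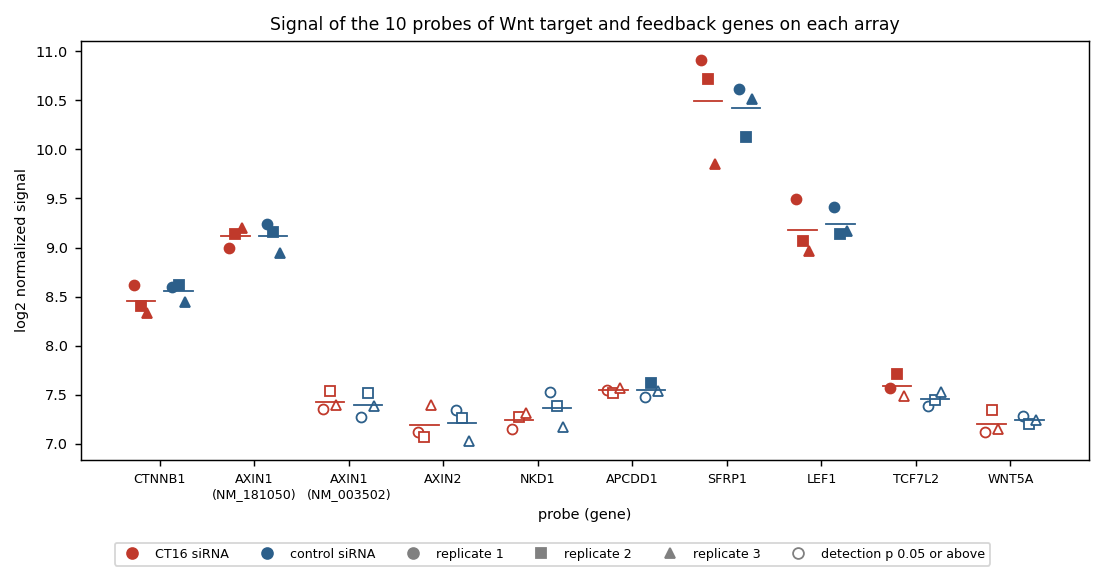
Quantile-normalized log2 signal of the 10 probes on each array, with CT16 siRNA in red to the left and control siRNA in blue to the right of each pair, and a line at each group mean of 3 arrays. Filled points have a detection p under 0.05, open points do not. The CTNNB1, SFRP1 and LEF1 probes and 1 AXIN1 probe are filled throughout, and the groups overlap for every probe.

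CTNNB1 encodes beta-catenin, the protein that carries the signal to the nucleus and is regulated in the canonical pathway mainly through its stability. Its log2 signal was 8.62, 8.40 and 8.34 in CT16 siRNA cells, against 8.60, 8.62 and 8.44 in control cells. The highest CT16 siRNA array lay within the control values and the other 2 below them. The difference was -0.10 ± 0.11 (SE, n = 3 each), or 0.933-fold with a 95% interval of 0.778 to 1.12 (limma adjusted p = 0.752). The interval spans both a loss and a gain of transcript. In RNA of whole cultures, fewer cells with a transcript and less of it per cell cannot be told apart.

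AXIN1, the constitutive scaffold of the destruction complex, was measured by 2 probes designed to different RefSeq transcripts. The probe to NM_181050 gave log2 signals of 9.0, 9.14 and 9.20 in CT16 siRNA cells and 9.24, 9.16 and 8.95 in control cells. The groups covered nearly the same range, with a difference of -0.0026 ± 0.11 (SE, n = 3 each) and a 95% interval of 0.829 to 1.20-fold (limma adjusted p = 0.997). The probe to NM_003502 was not above background on any array, with detection p of 0.0956 to 0.784. Its log2 signal of 7.35, 7.54 and 7.40 in CT16 siRNA cells and 7.27, 7.51 and 7.38 in control cells therefore gives no second estimate for the gene.

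LEF1 encodes a DNA-binding partner of beta-catenin and is itself a known target of the pathway. The unnormalized signal was 791.5, 571.4 and 490.4 on the CT16 siRNA arrays and 624.4, 511.3 and 583.7 on the control arrays. After normalization the log2 values were 9.50, 9.07 and 8.97 in CT16 siRNA cells, against 9.41, 9.14 and 9.17 in control cells. The CT16 siRNA arrays held both the highest and the lowest LEF1 value of the 6. The means were 9.18 ± 0.28 with CT16 siRNA and 9.24 ± 0.15 with control siRNA (SD, n = 3 each), a 0.958-fold ratio with a 95% interval of 0.740 to 1.24 (limma adjusted p = 0.900). Among LEF1, AXIN2, NKD1 and APCDD1, the known targets with a probe, LEF1 alone had a signal above background on every array.

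TCF7L2, also called TCF4 in the Wnt literature and distinct from the gene of that symbol, encodes another DNA-binding partner of beta-catenin. Its probe was above background on CT16 siRNA replicates 1 and 2 (detection p 0.0494 and 0.00396) but not on replicate 3 (0.181), and on none of the 3 control arrays (0.101 to 0.448). The log2 signal was 7.57, 7.71 and 7.49 in CT16 siRNA cells, against 7.39, 7.44 and 7.53 in control cells. The lowest CT16 siRNA value lay below the highest control value, and the 2-sided exact permutation p was 0.2 (n = 3 each), where 0.1 is the smallest this design allows. The mean CT16 siRNA value of 7.59 lay below 7.60, the mean over the 3 control arrays of the lowest signal above background on each, so no fold change is given. More probes in all were above background on the CT16 siRNA arrays than on the control arrays, and the part of this in the TCF7L2 detections was not tested.

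The TCF/LEF proteins bind short DNA motifs, and the promoters of the members were searched for them as a description of the loci. The motifs were CTTTGAA or CTTTGAT or CTTTGTA or CTTTGTT on either strand, within 250 bases before and 50 bases after each start site listed by RefSeq (GRCh38.p14). A match was present in 13.8% of all 35116 promoters and in 2 of 11 promoters of the 7 members looked up, AXIN1, LEF1, TCF7, TCF7L2, APCDD1, CTNNB1 and WNT5A. The promoters of SFRP1, AXIN2 and NKD1 were not analysed here, so the count covers 7 of the 10 genes. The 2 of 11 are 18.2%, a share near that of all promoters, so the count does not set the members apart. Both matches are CTTTGTT, at the second listed start sites of TCF7 and TCF7L2, which have 2 and 3 of the 11 start sites. The matches are shown on the strand of the gene with 20 bases to each side and the match in capitals. In TCF7 it lies on the opposite strand and so reads AACAAAG, and its first base is 50 bases before the start site. In TCF7L2 it begins 133 bases before the start site. The TCF7 stretch is chr5:134123548-134123594 and the TCF7L2 stretch chr10:113126480-113126526, both on the plus strand.
TCF7: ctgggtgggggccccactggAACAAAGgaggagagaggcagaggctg
TCF7L2: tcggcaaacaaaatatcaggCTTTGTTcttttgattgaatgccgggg

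AXIN2 and NKD1, whose transcripts are commonly used as readouts of the pathway, were not above background on any array, and APCDD1 was so on 1 array. AXIN2, the inducible scaffold of the destruction complex, had signals of 139.5, 127.4 and 169.1 on the CT16 siRNA arrays and 179.4, 152.3 and 123.7 on the control arrays, with detection p of 0.415 to 0.990. NKD1, which binds Dishevelled and dampens the signal, had 142.1, 146.8 and 160.3 on the CT16 siRNA arrays and 203.9, 164.8 and 137.4 on the control arrays (detection p 0.137 to 0.949). In both genes the control arrays spanned a wider range of unnormalized signal than the CT16 siRNA arrays, and the 2 groups overlapped. After normalization this held for NKD1 (log2 range 0.35 on control and 0.17 on CT16 siRNA arrays) but not for AXIN2 (0.32 and 0.33). APCDD1, a membrane protein that inhibits Wnt signalling at the receptor, was above background on 0 CT16 siRNA arrays and on 1 control array, replicate 2 (detection p 0.0396). Its log2 signals of 7.55, 7.51 and 7.57 in CT16 siRNA cells and 7.47, 7.62 and 7.54 in control cells lay close to the background limit throughout. For these probes no change was shown at this signal, which is not the same as no change.

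The 2 secreted proteins of the set differed in detection. WNT5A, a ligand that acts mostly through beta-catenin-independent signalling and is known for its role in melanoma motility, was not above background on any array (detection p 0.570 to 0.968). Its signals were 139, 154.7 and 143.9 on the CT16 siRNA arrays and 170.8, 145.8 and 144.2 on the control arrays.

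SFRP1 encodes a secreted Frizzled-related protein that binds Wnt ligands outside the cell. Its unnormalized signal was 1866.3, 1761 and 948.8 on the CT16 siRNA arrays, against 1407.2, 1063.7 and 1498.4 on the control arrays. The normalized log2 values were 10.91, 10.71 and 9.85 in CT16 siRNA cells and 10.62, 10.13 and 10.51 in control cells. CT16 siRNA replicates 1 and 2 lay above all control arrays and replicate 3 below all of them. The means were 10.49 ± 0.56 with CT16 siRNA and 10.42 ± 0.26 with control siRNA (SD, n = 3 each), a difference of 0.07 ± 0.28 (SE) or 1.05-fold (limma adjusted p = 0.934). The 95% interval of 0.675 to 1.64-fold was the widest among the 4 tested probes. The sign rested on single arrays: without CT16 siRNA replicate 3 the difference was 0.39 (limma adjusted p = 0.127), and without CT16 siRNA replicate 1 it was -0.14.

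SFRP1 and LEF1 shared their extreme arrays, both being highest on CT16 siRNA replicate 1 and lowest on CT16 siRNA replicate 3. Along the first axis of the component analysis the scores were 37.53, 9.03 and -16.45 for CT16 siRNA replicates 1, 2 and 3, against -4.49, -21.13 and -4.49 for control replicates 1, 2 and 3. SFRP1 was thus highest on the array with the highest score and lowest on the array with the next to lowest score, while AXIN1 was among the lowest on the array with the highest score. Of 9344 other named probes, 180 had a Pearson correlation with SFRP1 over 0.95 across the 6 arrays. The 3 most alike were NSUN2 (r = 0.997), SCRN1 (0.996) and AGFG1 (0.996), a description of arrays that share 1 cell line and 1 dominant component. The part of that component in the spread of SFRP1 and LEF1 was not tested.

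**Figure D2:**
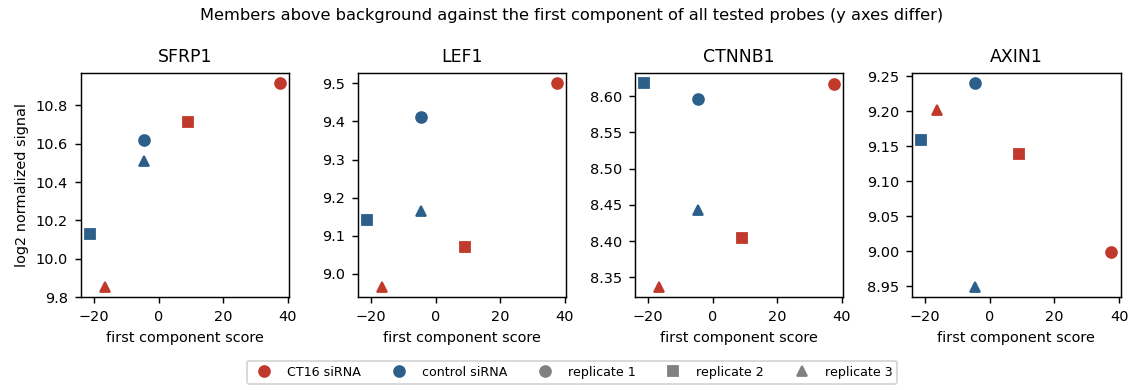
Quantile-normalized log2 signal of SFRP1, LEF1, CTNNB1 and AXIN1 (y axes, each on its own scale) against the score of each array on that first component of the tested probes (71.8% of their variance). Red points are the 3 CT16 siRNA arrays and blue points the 3 control arrays. SFRP1 runs between 9.85 on CT16 siRNA replicate 3 and 10.91 on CT16 siRNA replicate 1.

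The other genes of the pathway were taken from a list of 106, of which 103 had a probe and 61 had a probe above background on at least 3 arrays. FZD3, above background on the CT16 siRNA arrays alone, passed the filter only through that group and is left out of the counts that follow, which leaves 60. None of the 60 passed the limma threshold, and 6 had an unadjusted limma p under 0.05, a share close to the 9.57% of all tested probes. Without overlap between the groups, 3 were higher and 5 lower after CT16 siRNA, beside 7.39% and 8.95% of all tested probes, so these counts do not set the list apart. By the rank product, which ranked all probes, 2 of the list's 102 genes with a probe, DKK1 and CCND1, passed as higher and 0 as lower. Of all 47289 probes 0.203% passed as higher and 0.218% as lower. The list was chosen with earlier results of these data known, and DKK1 is a gene the study itself reports from them, so this count is a description. The limma count depended on single arrays. Without CT16 siRNA replicate 1, 1 of the genes (DKK1) passed, where 10 of all 11314 probes then tested did (0.0884%). Without CT16 siRNA replicate 3, 4 passed (DKK1, CCND1, CHD8 and RYK, all with higher signal after CT16 siRNA), where 489 of 11384 did (4.3%).

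DKK1, a secreted inhibitor that binds the LRP co-receptors and a known target of beta-catenin, had log2 signals of 11.16, 10.91 and 10.36 in CT16 siRNA cells and 9.26, 9.34 and 9.36 in control cells. That difference of 1.49 ± 0.19 (SE, n = 3 each; limma adjusted p = 0.202) stood beside differences of at most 0.10 in size for the 4 tested members. Outside these arrays, the study reports higher DKK1 mRNA in A2058 cells with independent CT16 siRNAs, and more DKK1 protein in the medium. CCND1, which encodes cyclin D1 and is counted among the targets of beta-catenin, had 10.82, 10.89 and 9.82 in CT16 siRNA cells, against 9.76, 9.37 and 9.64 in control cells. Every CT16 siRNA value lay above every control value, replicate 3 by the smallest margin, with a difference of 0.92 ± 0.28 (SE, n = 3 each; limma adjusted p = 0.477, rank product false discovery rate 0.004). MYC, a further target, differed by 0.22 (limma adjusted p = 0.527, rank product false discovery rate 0.579). Its groups did not overlap, but the lowest CT16 siRNA value was 8.96 and the highest control value 8.95.

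Among ligands and secretion genes 4 of 19 with a probe were tested. WNT3 differed by 0.15, WNT5B by -0.06, WNT10B by -0.13 and WLS, the carrier that brings Wnt proteins to the cell surface, by -0.05, none past the limma threshold. The WNT10B probe, counted above as lower without overlap, was above background on only 1 CT16 siRNA array and 2 control arrays. Of the receptors 12 of 17 were tested, and apart from FZD3 there were 7 with positive and 4 with negative differences. FZD3 had log2 signals of 7.96, 7.63 and 7.79 in CT16 siRNA cells, above background on all 3 arrays, against 7.52, 7.42 and 7.51 in control cells, above background on 0 arrays. Since the filter passed FZD3 through the CT16 siRNA arrays alone, these values are a description, and its limma fit is not read as a test.

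Among secreted inhibitors 4 of 12 were tested, and DKK3, a divergent member of the Dickkopf family, had 8.33, 8.36 and 8.40 in CT16 siRNA cells against 8.67, 8.55 and 8.53 in control cells (limma adjusted p = 0.515). Of the membrane and cytoplasmic feedback genes 4 of 6 were tested. RNF43, a ubiquitin ligase that removes Frizzled receptors from the membrane and is a target of the pathway, had log2 signals of 8.87, 8.95 and 8.56 in CT16 siRNA cells and 9.10, 9.08 and 9.08 in control cells. All 3 CT16 siRNA values lay below the control values, and the difference of -0.29 ± 0.12 (SE, n = 3 each) did not pass adjustment (limma adjusted p = 0.515).

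In the destruction complex and its relay 12 of 19 genes were tested, 6 with positive and 6 with negative differences. PPP2R1A, a scaffold subunit of protein phosphatase 2A, had the smallest unadjusted p of these, with a difference of -0.41 ± 0.16 (SE, n = 3 each; limma adjusted p = 0.514). Of the nuclear partners 13 of 15 were tested, and CHD8, a chromatin remodeller that binds beta-catenin, differed by 0.51 ± 0.18 (limma adjusted p = 0.481). The CHD8 groups overlapped, with CT16 siRNA replicate 3 at 8.86 and control replicate 1 at 8.90. Of the other reported targets 12 of 15 were tested. Next to CCND1 and MYC, those named by rule were CD44 at -0.17 and PPARD at -0.17, for which a further tested probe of the gene gave 0.10.

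**Figure D3:**
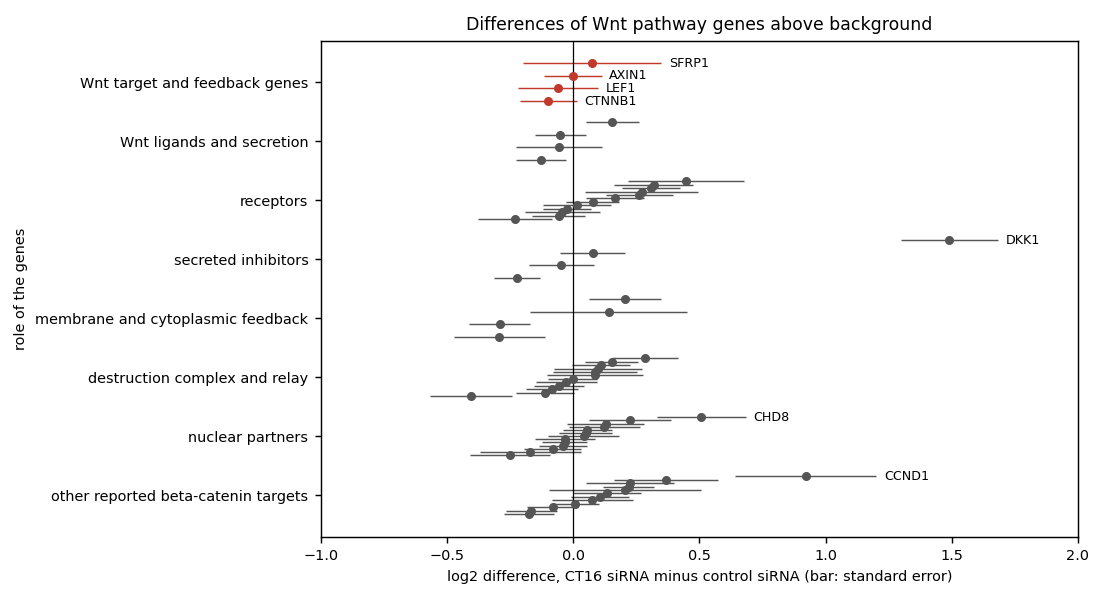
Log2 differences, CT16 siRNA minus control siRNA, with their limma standard errors (n = 3 arrays each), for the 4 tested members (red, top row) and 61 other Wnt pathway genes by role (grey). The members lie between -0.10 and 0.07, DKK1 at 1.49 and CCND1 at 0.92. FZD3, drawn among the receptors, passed the filter through the CT16 siRNA arrays alone.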

How the data were processed

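For every probe and array the authors deposited an unnormalized, linear signal intensity, and beside it a detection p-value that sets the signal against the negative control beads. They also deposited quantile-normalized intensity values, used here as an alternative. Neither a background subtraction nor the probes' genome build was stated in the material at hand. Of 47296 probes 7 were empty. Symbols came from the platform annotation, which names 18468 probes.

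Signals were quantile-normalized on the log2 scale with no pseudocount. A probe was fitted when 3 or more of the 6 arrays had a detection p under 0.05, using limma 3.58.1 (lmFit, eBayes) in R 4.3.3, and p-values were adjusted over all 12082 by the Benjamini-Hochberg method. The rank product of the study's methods was rewritten, with 9 pairwise ratios, 100 permutations within arrays and all 47289 probes. Both were tested on simulated data. Figures were drawn with matplotlib 3.10.9. The number of arrays limits the precision.

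The members and lists were chosen with earlier results of these data known. All member probes were named, with PAGE5 and DKK1. From the pathway list the rule took genes past the limma threshold, otherwise the 5 smallest unadjusted p in each direction, and for the member probe of highest mean signal detected on all arrays (SFRP1) the 3 most correlated named genes. Pathway genes with several probes are given by 1 probe, the tested one of highest mean signal. The other ligand genes and RYK were named after their values were seen. Alternatives were neqc, the authors' own normalized values, scaling by a median shift, a detection p under 0.01 on 6 arrays or no filter, an intensity trend with robust prior, the replicate number as a block, and each array left out.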

Additional observations from a re-analysis of the deposited data

How the results depend on the processing

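No member probe passed the limma threshold under any alternative run. Of the 36 alternative values of the 4 member differences that a setting could move, 25 had the sign of the main value. The other 11 had the opposite sign, 3 of them under the median shift. The filters, the intensity trend and the replicate block leave the difference as it is. A median shift in place of quantile normalization moved the median of all tested probes to 0.10 (0.00 in the main values). It gave 0.10 for CTNNB1, 0.20 for AXIN1 and 0.12 for LEF1, which relative to that median are -0.00071, 0.095 and 0.016. Relative to the median, CTNNB1 thus kept the sign of its main value, while AXIN1 and LEF1 had the opposite sign. With each array left out in turn the differences ranged from -0.085 to 0.060 for AXIN1, -0.14 to 0.39 for SFRP1, -0.23 to 0.044 for LEF1 and -0.18 to -0.042 for CTNNB1. Over all tested probes the limma calls ranged from 0 to 489, of which 489 came without CT16 siRNA replicate 3 and 10 when CT16 siRNA replicate 1 was left out, and the pathway list's from 0 to 4, an alternative chosen after seeing the data. The cause was not tested. Same-numbered arrays correlated in their deviations from the group means at 0.42, 0.02 and -0.41, and arrays of unlike number at -0.67 to 0.68. The deviations of 3 arrays from their own mean depend on one another, so these values cannot decide whether the numbers pair the samples. The labels do not state it. With the replicate block 0 member probes and 0 of all probes passed (smallest adjusted p 0.389), as in the fit without the block. The 6 probes under the filter lay close to background, and a difference in them was neither shown nor excluded.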
